A study of Homo sapiens with 6 samples.

Results

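The genes described here are 10 members of the BCL2 family, which sets the threshold for mitochondrial apoptosis. They were chosen by name, as a list of anti-apoptotic and pro-apoptotic members, and all 10 are listed among the 47470 genes of the count files. Their RNA was compared between untreated HEK293T cells and cells kept for 1 day with valproic acid (VPA) at 1 mM, which inhibits histone deacetylases, with 3 libraries per condition and 6 in all. HEK293T is an established human embryonic kidney cell line expressing SV40 large T antigen, and both conditions share it. The untreated cells are labelled wild type and received no agent. The sources do not say whether the libraries of a condition came from separate cultures, so p-values measure the spread between these libraries, which may be technical.

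Mitochondrial apoptosis is decided at the outer mitochondrial membrane by proteins that bind each other. The effectors BAX and BAK form pores in that membrane and release cytochrome c. The anti-apoptotic proteins BCL2, BCL-XL (BCL2L1), BCL-W (BCL2L2) and MCL1 hold the effectors in check, and the BH3-only proteins BIM (BCL2L11), PUMA (BBC3), NOXA (PMAIP1) and BMF bind and neutralise the anti-apoptotic proteins or engage the effectors directly. MCL1 is short-lived, and NOXA binds it with preference. Protein amounts and the phosphorylation or cleavage that control many of these proteins are not visible in RNA counts.

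After VPA treatment 7 of the 10 members were lower and 0 were higher at an adjusted p under 0.05 in edgeR's quasi-likelihood test over all 15298 genes tested. The same test called 62.9% of all tested genes, 30% lower and 32.9% higher. Among the 11065 tested genes that averaged 100 or more normalized counts, a level that all 10 members reach, 67.6% were called, 38.8% lower and 28.7% higher. The lower members were the anti-apoptotic MCL1 and BCL2L1, both effectors, BAX and BAK1, and the BH3-only genes BCL2L11, PMAIP1 and BBC3. BCL2, BCL2L2 and BMF did not pass in either direction, and 1 member, BMF, had an unadjusted p under 0.05 on the higher side. DESeq2 also called 7 members lower and 0 higher, beside 21.7% lower and 21.7% higher of the 19502 genes it tested. The changes were small. The log2 fold changes lay between -0.54 and 0.22 with a median size of 0.25, against 0.26 over all tested genes, and 0 members reached the study's threshold of a log2 fold change of 1 in size, by the adjusted or the unadjusted p and in both tools, which 12.5% of all tested genes passed, 12% higher and 0.503% lower. Among the genes with a mean of 100 or more, 5.6% passed it, 5.44% higher and 0.163% lower. The libraries of the 2 conditions did not overlap for 8 members, against 65.8% of all tested genes and 69.6% of those with a mean of 100 or more. Values are relative to the other RNA of a library, and less RNA per cell cannot be told apart from fewer cells that carry the RNA.

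**Figure D1:**
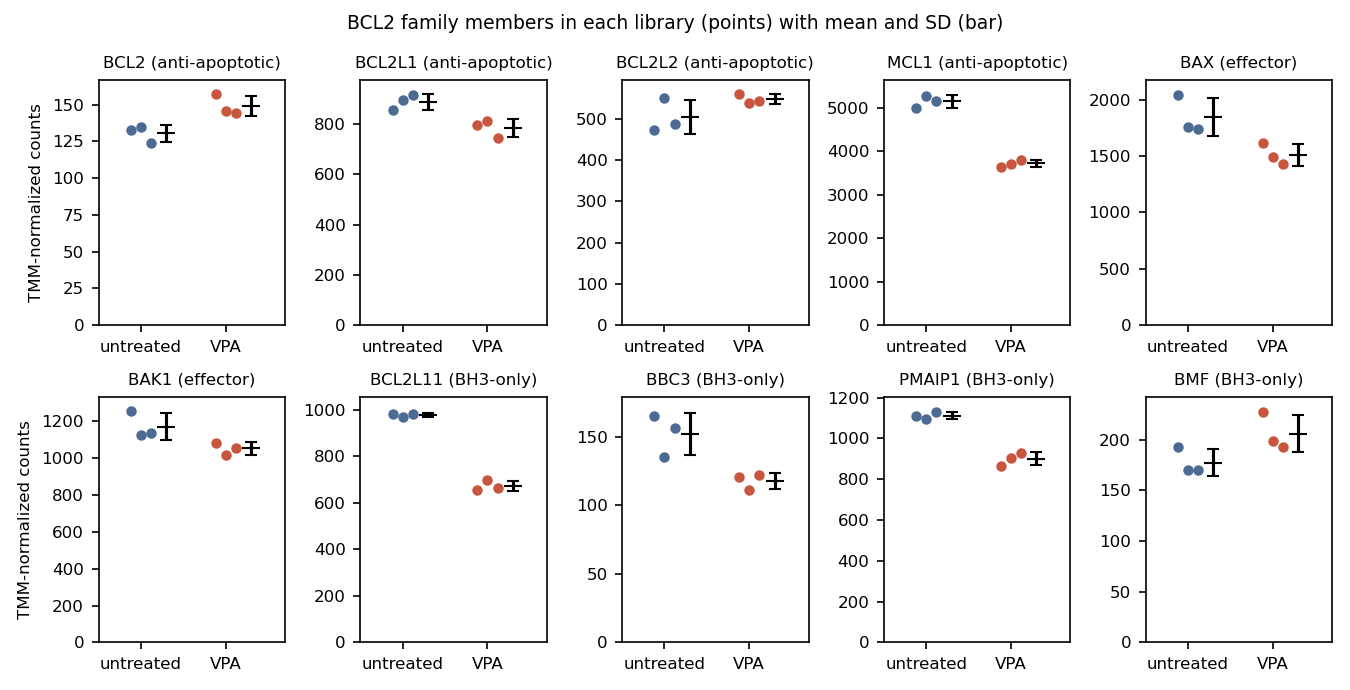
TMM-normalized counts (y axis, from 0) of each of the 10 members in the 3 untreated libraries (blue points) and the 3 VPA-treated libraries (red points), with the mean and SD of each condition as a bar. MCL1 and BCL2L11 show the widest gaps between the conditions, while the points of BCL2L2 and BMF overlap.

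How many members were called depended on how the libraries were scaled. TMM scaling, used here, put the median log2 fold change over the tested genes at 0.0058. With upper quartile scaling that median was 0.071, with library totals 0.14 and with the ribosomal protein genes as the reference 0.27. The shares of all tested genes called higher and lower moved with it, to 38% and 22.3% with upper quartile scaling, 43.9% and 15.5% with library totals and 60.2% and 5.67% with ribosomal protein genes. Of the members, 5 were lower and 3 higher with upper quartile scaling. With library totals 4 were lower and 3 higher, and with ribosomal protein genes 2 were lower and 3 higher. MCL1 and BCL2L11 were the 2 members that were called lower under every scaling, filter, tool and left-out library tried. BCL2, BCL2L2 and BMF were the 3 that passed as higher with upper quartile scaling, library totals or ribosomal protein genes. Relative to the median of all tested genes, each member had nearly the same value under every scaling, which was -0.55 for BCL2L11, -0.47 for MCL1 and 0.21 for BMF with TMM.

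**Figure D2:**
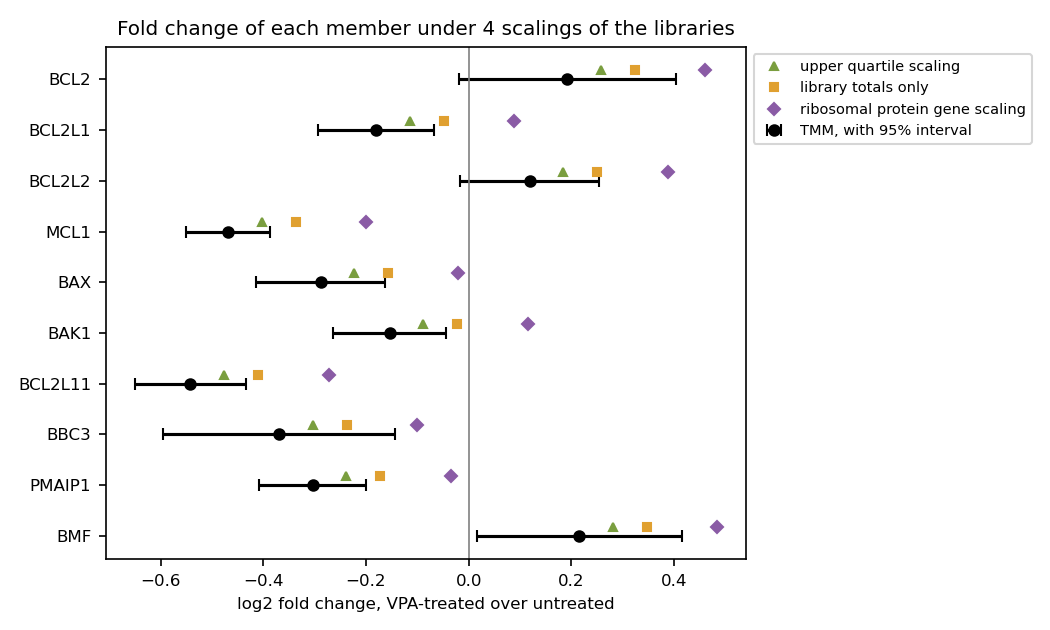
Log2 fold change of each member (x axis, VPA-treated over untreated) with TMM scaling and its 95% interval (black) and with 3 other scalings of the libraries (coloured symbols). The symbols shift to the right together, and MCL1 and BCL2L11 stay below 0 under each scaling, while BCL2L1 and BAK1 pass above 0 with ribosomal protein genes.

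Promoter windows are shown for 3 BH3-only genes with different responses, BCL2L11 and PMAIP1, which were lower after VPA, and BMF, which was not. Each is the 250 bases before the gene's start in RefSeq on GRCh38.p14, written in the direction of transcription, with GC boxes in capitals (GGGCGG on either strand, a sequence that SP1 family factors are known to bind). The window of BCL2L11 is chr2:111120664-111120913 on the plus strand, that of PMAIP1 is chr18:59899746-59899995 on the plus strand and that of BMF is chr15:40108880-40109129 on the minus strand.
BCL2L11: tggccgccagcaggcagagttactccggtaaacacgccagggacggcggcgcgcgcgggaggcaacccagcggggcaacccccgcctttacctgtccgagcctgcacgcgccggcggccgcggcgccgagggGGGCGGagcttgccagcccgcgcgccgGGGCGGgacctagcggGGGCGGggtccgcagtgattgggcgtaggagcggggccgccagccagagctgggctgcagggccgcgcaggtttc
PMAIP1: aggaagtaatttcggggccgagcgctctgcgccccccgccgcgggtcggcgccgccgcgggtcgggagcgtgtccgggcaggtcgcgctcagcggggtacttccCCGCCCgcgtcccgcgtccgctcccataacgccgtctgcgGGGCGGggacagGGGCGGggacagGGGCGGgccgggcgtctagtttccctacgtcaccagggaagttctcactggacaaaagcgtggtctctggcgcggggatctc
BMF: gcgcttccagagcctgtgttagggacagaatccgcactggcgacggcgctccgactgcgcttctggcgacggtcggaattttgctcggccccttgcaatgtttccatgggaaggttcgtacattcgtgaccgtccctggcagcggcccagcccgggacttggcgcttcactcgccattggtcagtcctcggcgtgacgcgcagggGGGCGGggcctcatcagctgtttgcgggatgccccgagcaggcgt
RefSeq windows were matched by symbol for 8 members, with 10 windows because BCL2L1 and BMF have more than 1, and were not found for MCL1 and BCL2L2. The BCL2L11 window holds 3 GC boxes, the PMAIP1 window 4 and the BMF window 1. The window of BBC3, the BH3-only member not shown, holds 0, and BBC3 was also lower after VPA. That window, chr19:47232668-47232917 on the minus strand, lies mostly inside the gene, whose coordinates run to 47232860. The BCL2 window and window 2 of both BCL2L1 and BMF lie inside their genes. The counts of windows below thus include bases that are not upstream of the whole gene. A GC box is in 5 of the 10 windows, against 42.6% of all 35116 windows of the same length. The CCAAT box (CCAAT, either strand) is in 5 windows, against 32% of all, the forkhead site TGTTTAC in 1, that of BCL2L11, against 2.98%, and the E-box CACGTG in 2, those of BAX and BBC3, against 6.34%. The TATA box TATAAA is in 1 window, of BCL2L1, against 10.7%, and the cyclic AMP response element TGACGTCA in 0, against 1.65%. GC content was 76.8% in the BCL2L11 window, 72.8% in that of PMAIP1 and 65.2% in that of BMF. It was 49.2% in that of BBC3, against a median of 58% over all windows. These are matches of letters, and whether a factor binds there was not measured.

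MCL1, the anti-apoptotic member with the most counts, fell after VPA. It is at chr1:150574558-150579610 (minus strand, RefSeq coordinates on GRCh38.p14, as for the other members). Normalized counts, which are counts after TMM normalization at the size of an average library, were 4994, 5275 and 5161 in the untreated and 3640, 3713 and 3796 in the VPA-treated libraries. Each VPA-treated library was thus below each untreated one, and the change in means was -27.7%. Its log2 fold change in VPA-treated over untreated cells was -0.47, with a standard error (SE) of 0.040 (adjusted p = 1.32e-09 in edgeR). ADAMTSL4-AS1, on the same strand, overlaps 5.27% of the exonic bases of MCL1 and has 10 counts over the 6 libraries, against 26398 for MCL1.

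BCL2L1, which encodes BCL-XL, is the second anti-apoptotic member by level per length. It is at chr20:31664452-31723963 (minus strand). Its normalized counts were 855, 895 and 918 in untreated and 798, 812 and 744 in VPA-treated libraries. The ranges did not overlap, but the gap was small, with a log2 fold change of -0.18 (SE 0.055, adjusted p = 0.0067 in edgeR). The call was lost with upper quartile scaling, where the log2 fold change was -0.12 (adjusted p = 0.072 in edgeR), and with library totals (adjusted p = 0.45), and the direction turned to 0.089 with ribosomal protein genes (adjusted p = 0.15). Counts per gene do not separate the long, anti-apoptotic form from the short, pro-apoptotic splice form of this gene. ABALON, a transcript on the opposite strand, overlaps 41.3% of its exonic bases and has 30 counts over the 6 libraries.

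BCL2, the member that gave the family its name, had few counts, 841 over the 6 libraries. It is at chr18:63123346-63320090 (minus strand). Its normalized counts were 133, 135 and 124 in untreated and 157, 146 and 145 in VPA-treated libraries. Every VPA-treated library was above every untreated one, yet the log2 fold change of 0.19 did not pass the threshold (SE 0.10, 95% interval -0.019 to 0.40, adjusted p = 0.11 in edgeR). At this depth the interval leaves room for no change and for an increase to 1.32-fold. With library totals the value was 0.32 (adjusted p = 0.0096 in edgeR) and with ribosomal protein genes 0.46 (adjusted p = 5.33e-04).

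BCL2L2, which encodes BCL-W, is at chr14:23306833-23311751 (plus strand). Its normalized counts were 473, 552 and 489 in untreated and 562, 539 and 543 in VPA-treated libraries. The ranges overlapped through untreated replicate 2, and the log2 fold change was 0.12 (SE 0.065, 95% interval -0.017 to 0.25, adjusted p = 0.12 in edgeR). Without untreated replicate 2 it was 0.18 (adjusted p = 0.032). The read-through gene BCL2L2-PABPN1 shares 16.8% of the exonic bases of BCL2L2 on the same strand, where a read cannot be given to either gene. It has 53 counts over the 6 libraries, against 3163 for BCL2L2. Of its own exonic bases, 95.4% are shared with BCL2L2 or PABPN1 on the same strand. Its counts therefore do not measure how much read-through RNA there is. PABPN1 had a log2 fold change of -0.46 (adjusted p = 0.038 in edgeR). On the opposite strand HOMEZ, with 5465 counts, overlaps 3.08% of the exonic bases of BCL2L2 and PPP1R3E, with 1958 counts, 6.51%. Their log2 fold changes were -0.067 and -0.086 (adjusted p = 0.25 and 0.31 in edgeR).

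Both effectors were lower. BAX is at chr19:48954875-48961798 (plus strand) and had 2041, 1756 and 1739 normalized counts in untreated and 1619, 1489 and 1427 in VPA-treated libraries. The conditions did not overlap, and untreated replicate 1 stood above the other untreated libraries. The log2 fold change was -0.29 (SE 0.060, adjusted p = 3.82e-04 in edgeR), and without that library it was -0.22 (adjusted p = 6.29e-04). With ribosomal protein genes as the reference it was -0.020 (adjusted p = 0.80).

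BAK1, at chr6:33572552-33580276 (minus strand), had 1256, 1124 and 1135 normalized counts in untreated and 1085, 1018 and 1056 in VPA-treated libraries. The conditions did not overlap, again with untreated replicate 1 the highest. BAK1 changed by -0.15 on the log2 scale (SE 0.053, adjusted p = 0.015 in edgeR). The call was lost without untreated replicate 1, with a log2 fold change of -0.11 (adjusted p = 0.081), and without VPA-treated replicate 2 (-0.13, adjusted p = 0.076). It was also lost with upper quartile scaling (-0.089, adjusted p = 0.15) and library totals (-0.023, adjusted p = 0.74), and the direction turned to 0.11 with ribosomal protein genes (adjusted p = 0.083), all in edgeR. Relative to the median of all tested genes BAK1 stood at -0.16 under each of these scalings.

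Among the BH3-only genes BCL2L11, which encodes BIM, had the largest change of the 10 members. BIM binds all the main anti-apoptotic proteins and can engage BAX and BAK. The gene is at chr2:111120914-111168445 (plus strand). Its normalized counts were 984, 969 and 983 in untreated and 656, 697 and 665 in VPA-treated libraries, a change in means of -31.3%. The untreated libraries lay close together, with an SD of 7.96, and the conditions did not overlap. BCL2L11 changed by -0.54 on the log2 scale (SE 0.052, adjusted p = 1.01e-08 in edgeR), and it lay between -0.57 and -0.52 with each library left out. MIR4435-2HG, on the opposite strand, shares 10.8% of the exonic bases of BCL2L11 and moved the other way, with a log2 fold change of 0.34 (adjusted p = 0.028 in edgeR).

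PMAIP1, which encodes NOXA, fell as well. It is at chr18:59899996-59904305 (plus strand), and its normalized counts were 1109, 1094 and 1131 in untreated and 866, 904 and 931 in VPA-treated libraries. The conditions did not overlap. PMAIP1 changed by -0.30 on the log2 scale (SE 0.050, adjusted p = 1.86e-05 in edgeR). It stayed between -0.33 and -0.28 with each library left out, but was -0.035 with ribosomal protein genes (adjusted p = 0.57).

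BBC3, which encodes PUMA, a BH3-only protein that binds all the main anti-apoptotic proteins, had the fewest counts, 805 over the 6 libraries. It is at chr19:47220824-47232860 (minus strand). Its normalized counts were 165, 135 and 156 in untreated and 121, 111 and 122 in VPA-treated libraries, so that every VPA-treated library was below every untreated one. The log2 change was -0.37 with a wide error (SE 0.11, adjusted p = 0.0056 in edgeR). The call was lost with library totals (-0.24, adjusted p = 0.069) and with ribosomal protein genes (-0.10, adjusted p = 0.45).

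BMF, which is held on the cytoskeleton through the dynein light chain DYNLL2 in healthy cells, stood apart from the other BH3-only members by its sign. It is at chr15:40087890-40108879 (minus strand). Its normalized counts were 193, 170 and 170 in untreated and 227, 198 and 192 in VPA-treated libraries. The lowest VPA-treated library was just under the highest untreated one. The log2 fold change of 0.22 did not pass the threshold (SE 0.096, 95% interval 0.016 to 0.41, unadjusted p = 0.036, adjusted p = 0.056 in edgeR), and DESeq2 gave an adjusted p of 0.27. Without untreated replicate 1 it passed, at 0.27 (adjusted p = 0.028 in edgeR), and without VPA-treated replicate 3 at 0.26 (adjusted p = 0.042).

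The ratio of the counts of 2 members within a library does not depend on the scaling of the libraries. These ratios were set out as a description, without a test. MCL1 fell further than most of the other members. The counts of 6 of the 8 members compared with it were higher per MCL1 count in every VPA-treated library. MCL1 itself changed by -0.47, against a median of 0.0058 over all tested genes, so a gene at that median also rises per MCL1 count. The share of all tested genes that separate in this way was not computed. BBC3 was not among the members compared. BMF per MCL1 count was 0.039, 0.032 and 0.033 in untreated and 0.062, 0.053 and 0.051 in VPA-treated libraries, a difference in mean log2 ratio of 0.68. For BCL2 per MCL1 count the ratios were 0.027, 0.026 and 0.024 against 0.043, 0.039 and 0.038, a difference of 0.66. Within the anti-apoptotic members the weight thus moved from MCL1 towards the others.

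The difference in mean log2 ratio to MCL1 was 0.59 for BCL2L2, 0.32 for BAK1, 0.29 for BCL2L1 and 0.16 for PMAIP1, all without overlap between the conditions. These ratios were not divided by transcript length. NOXA counts per MCL1 count were 0.22, 0.21 and 0.22 in untreated and 0.24, 0.24 and 0.25 in VPA-treated libraries. BIM counts per MCL1 count did not separate the conditions, at 0.20, 0.18 and 0.19 against 0.18, 0.19 and 0.18. Neither did BAX counts per MCL1 count, at 0.41, 0.33 and 0.34 against 0.44, 0.40 and 0.38. Per BCL2 count, both BIM and BAX were lower in every VPA-treated library. BIM counts per BCL2 count went from 7.42, 7.18 and 7.93 in untreated to 4.17, 4.79 and 4.596 in VPA-treated libraries, a log2 difference of -0.73. BAX counts per BCL2 count were 15.4, 13.01 and 14.0 against 10.3, 10.2 and 9.87, a log2 difference of -0.48. Between 2 BH3-only genes, BMF counts per BIM count were 0.20, 0.17 and 0.17 in untreated and 0.35, 0.28 and 0.29 in VPA-treated libraries.

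**Figure D3:**
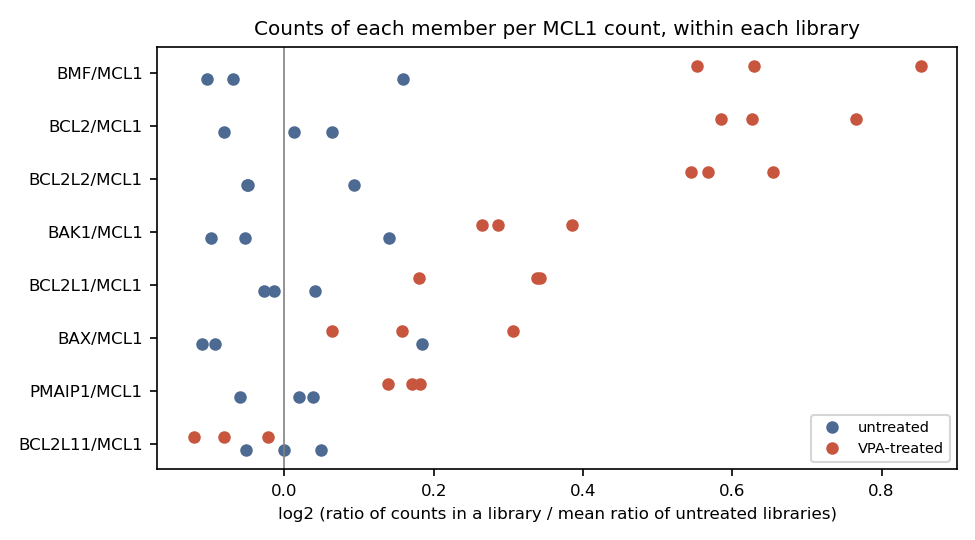
Counts of 8 members divided by the MCL1 counts of the same library, as log2 of the ratio over the mean ratio of the untreated libraries (x axis), for the 3 untreated (blue) and the 3 VPA-treated (red) libraries. BMF, BCL2 and BCL2L2 lie far to the right after VPA, while the points of BCL2L11 and BAX overlap between the conditions.

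To compare levels between members, normalized counts were divided by the length in kilobases of the MANE Select transcript, the reference isoform of a gene in GENCODE 44. In untreated cells BAX was highest, with 2321 ± 213 normalized counts per kilobase (SD, n = 3), followed by MCL1 with 1302 ± 35.7, PMAIP1 with 585 ± 9.72 and BAK1 with 540 ± 33.7. BCL2L1 had 346 ± 12.3, BCL2L11 192 ± 1.56, BCL2L2 143 ± 11.8, BBC3 82.4 ± 8.27, BMF 37.8 ± 2.80 and BCL2 19.0 ± 0.851. BCL2 RNA was thus the least abundant of the 10 per length. In this order only the neighbours PMAIP1 and BAK1 overlapped in their libraries. After VPA the order was the same except that BAK1 stood above PMAIP1, at 485 ± 15.4 and 474 ± 17.0 with overlapping libraries, and BCL2L2 above BCL2L11, at 155 ± 3.38 and 132 ± 4.23 without overlap. BAX was 1901 ± 123 and MCL1 941 ± 19.7 normalized counts per kilobase. The place of BAX rests on its short reference transcript of 795 bases. With the union of all annotated exons as the length, MCL1 came first with 827 ± 22.7 and BAX second with 713 ± 65.4 in untreated cells.

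Summed over roles on the same scale, the 4 anti-apoptotic members made up 32.6% ± 2.09 of the level of all 10 members without and 31.5% ± 0.927 with VPA (SD, n = 3 each). The effectors made up 51.3% ± 2.50 and 52.7% ± 1.62, and the BH3-only members 16.1% ± 0.547 and 15.8% ± 0.699. All 3 shares overlapped between the conditions. The sizes of the shares depend on the length used. With the union of exons the effectors made up 39.7% and 41.5%, the BH3-only members 23.45% and 22.9% and the anti-apoptotic members 36.9% and 35.6%, again with overlap. Within the anti-apoptotic group the libraries of the conditions did separate. MCL1 made up 72.0% ± 0.252 of the summed level of the 4 anti-apoptotic members in untreated and 66.1% ± 1.17 in VPA-treated cells. These sums are a description and weigh each RNA alike, which binding strengths do not.

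**Figure D4:**
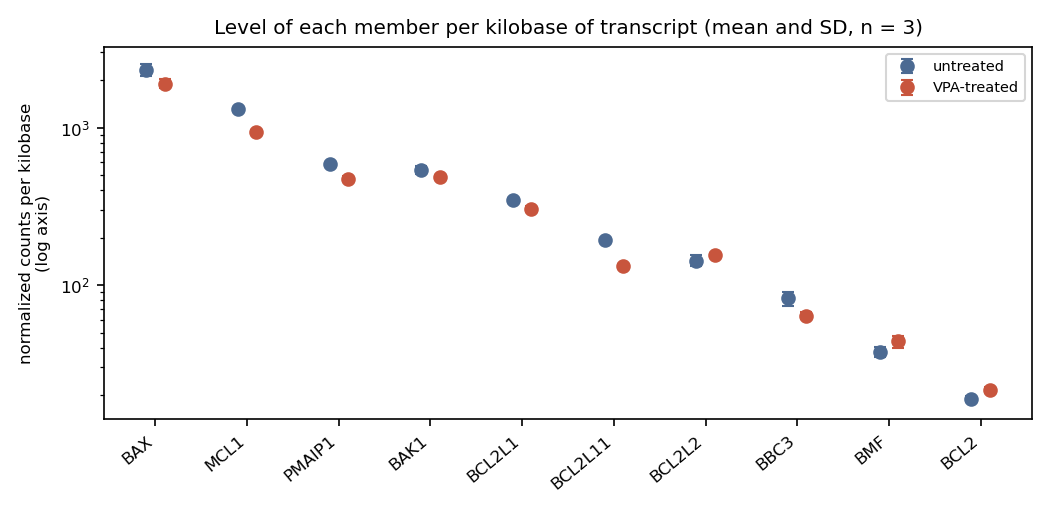
Normalized counts per kilobase of the MANE Select transcript (log y axis, mean and SD of 3 libraries) for each member in untreated (blue) and VPA-treated (red) cells, in the order of the untreated level. The levels span from 2321 for BAX to 19.0 for BCL2, and BCL2L2 stands above BCL2L11 in VPA-treated but not in untreated cells.

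The other genes of the pathway were taken from lists by role, 49 genes in all, of which 39 were tested. At an adjusted p under 0.05 in edgeR's quasi-likelihood test 7 were higher and 21 lower after VPA, beside 32.9% higher and 30% lower over all tested genes and 28.7% and 38.8% among those averaging 100 or more normalized counts, with a median log2 fold change of -0.17, against 0.0058 over all tested genes. With ribosomal protein genes as the reference the same lists gave 17 higher and 4 lower, beside 60.2% higher and 5.67% lower over all tested genes. Of the genes not tested, AIFM1, XIAP, HUWE1 and USP9X lie on chromosome X, whose genes are all listed at 0 here. BCL2A1, an anti-apoptotic member known from blood cells, and BIRC7 had 0 counts in every library, which allows up to 3 counts per library. BCL2L10, BCL2L14, BCL2L15 and TP63 had 1 to 45 counts over the 6 libraries, too few for the filter.

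Past both thresholds of the study were 2 of the 39 tested genes of these lists, both with low counts and both up-regulated. Of all tested genes 12.5% passed both, 12% higher and 0.503% lower. BIK, a BH3-only gene whose protein sits at the endoplasmic reticulum, had 15.5, 11.5 and 13.7 normalized counts in untreated and 75.7, 73.2 and 38.3 in VPA-treated libraries. The conditions did not overlap, though VPA-treated replicate 3 was far below the other VPA-treated libraries. Its log2 fold change was 2.19 (SE 0.28, adjusted p = 1.58e-06 in edgeR), between 2.03 and 2.44 with each library left out. BIRC3, an inhibitor of apoptosis protein and a classical NF-kB target, had 7.25, 4.19 and 8.40 against 24.0, 27.9 and 23.0 normalized counts. Its log2 fold change was 1.90 (SE 0.31, adjusted p = 1.88e-05 in edgeR). Both BIK and BIRC3 carried far fewer counts than any of the 10 members.

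Among the other BH3-only genes 1 of 4 tested was higher, BIK, and 1 lower, BID, beside 32.9% higher and 30% lower over all tested genes. BID, which links death receptors to the mitochondrion once caspase-8 cleaves it, went from 639 ± 13.3 to 451 ± 10.7 normalized counts (SD, n = 3 each), or by -0.50 on the log2 scale (SE 0.059, adjusted p = 1.84e-07 in edgeR). The further effector BOK had 110 counts over the 6 libraries and a log2 fold change of 0.41 with a 95% interval from -0.23 to 1.04 (adjusted p = 0.25 in edgeR), so a change in it was not detectable at this depth. Of the divergent members of the family 1 of 4 tested was higher and 1 lower, beside the same shares over all tested genes. The higher gene was BNIP3L, a mitophagy receptor, with a log2 fold change of 0.36 (adjusted p = 1.76e-05 in edgeR).

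Genes for proteins that act at or leave the mitochondrion gave 1 higher and 5 lower of 7 tested. Of all tested genes 30% were lower, and 38.8% of those averaging 100 or more normalized counts. The outer membrane channel VDAC2, which is needed for BAK to reach mitochondria, fell with a log2 fold change of -0.28 (adjusted p = 1.91e-05 in edgeR). Of the 7 genes for the apoptosome and caspases 3 were higher and 3 lower. Inhibitor of apoptosis genes gave 1 higher, BIRC3, and 2 lower of 4 tested. Both lists stand beside 32.9% higher and 30% lower over all tested genes.

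Of 5 tested genes for the turnover or sequestration of the family, 3 were lower and 0 higher. Beside this, 30% of all tested genes were lower, and 38.8% of those averaging 100 or more normalized counts. Among the lower genes was MARCHF5, a mitochondrial ubiquitin ligase that acts on the MCL1 and NOXA complex, at -0.31 (adjusted p = 3.91e-05 in edgeR). Of 7 tested transcription factors known to act on the family, 6 were lower and 0 higher, beside the same 30%, or 38.8% among genes averaging 100 or more normalized counts. FOXO3, known as an activator of BIM and PUMA, went from 1608 ± 21.9 to 1101 ± 20.2 normalized counts (SD, n = 3 each), or by -0.55 on the log2 scale (SE 0.045, adjusted p = 9.16e-10 in edgeR). FOXO3 and BID were lower under every scaling tried, while VDAC2 and MARCHF5 did not pass with ribosomal protein genes (adjusted p = 0.84 and 0.58 in edgeR).

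**Figure D5:**
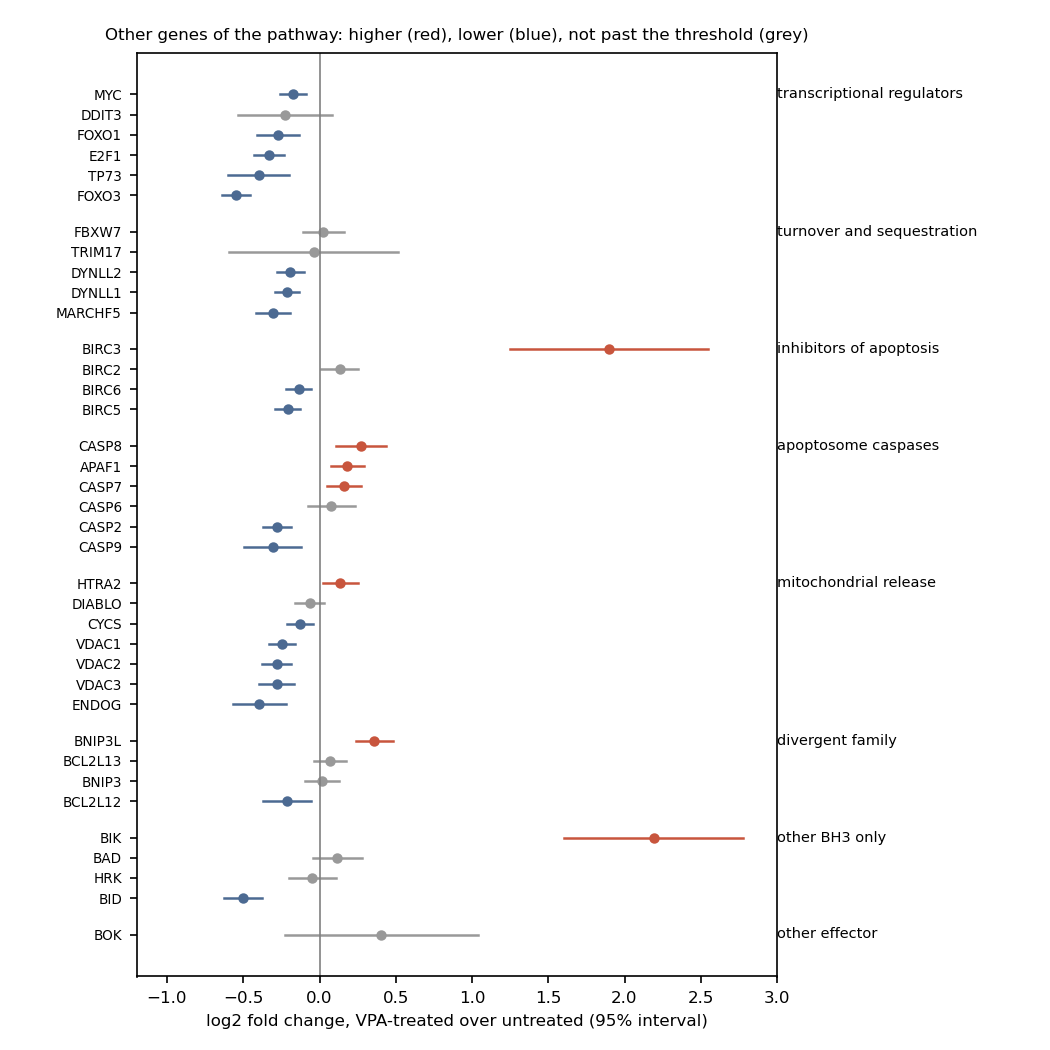
Log2 fold change (x axis, VPA-treated over untreated, with 95% intervals) of 37 of the 39 tested genes of the pathway, grouped by role, with genes called higher in red, lower in blue and the others in grey. BIK and BIRC3 stand far to the right with wide intervals, while the other called genes shown lie within a log2 fold change of 0.55 of 0.

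The libraries were of even depth, with 18622267 to 18828495 counts on genes. Within a condition the spread exceeded sampling noise (chi-square per gene 1.62 to 4.80), most so for the pairs with untreated replicate 1 or VPA-treated replicate 1. All 7 genes listed as expressed by HEK293 cells, such as VIM and SALL1, had at least 10 counts in every library. Of other cell types, hepatocyte markers summed to at most 2.89 normalized counts in any library and leukocyte markers to 19.7 to 35.7 in untreated and 35.4 to 46.0 in VPA-treated libraries. The 4 fibroblast markers summed to 460 to 522 normalized counts in untreated and 1561 to 1740 in VPA-treated libraries, mostly COL1A1, and DCN had 0 counts in all but 1 of the untreated libraries. The part of these marker genes in the results on the BCL2 family was not tested.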

How the data were processed

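RNA from 3 untreated and 3 VPA-treated libraries was analysed. The deposited values are raw read counts per gene symbol, which the authors made by cleaning reads with SOAPnuke, aligning them with STAR to hg38 and counting with htseq-count, without normalization. The submitters' processing notes list STAR 2.7.10b and HTSeq 2.0.1. The gene annotation and strand setting of the counting are not given in the sources used here, so overlapping genes with the most shared bases or counts are named beside the members. Reads with several alignments or shared by genes were not counted, and the 5 summary lines, 6.80% to 7.69% of reads off any gene, 1.97% to 2.10% ambiguous and 2.81% to 2.92% not unique, were left out.

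The test was that of edgeR 4.0.16 under R 4.3.3 (TMM, filterByExpr with a count minimum of 10, robust quasi-likelihood fit on condition alone, prior count 0.125, Benjamini-Hochberg adjustment over 15298 genes). The study used DESeq2, which is an alternative here in version 1.42.0. Standard errors are the log2 fold change over the root of F, with 95% intervals from the t distribution of the fit. The procedure was tested on simulated data. Coordinates and promoters are from RefSeq on GRCh38.p14, where all 10 members matched by symbol, and transcript lengths and overlaps from GENCODE 44. All 1610 listed genes that RefSeq places on chromosomes X and Y are at 0.

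Values of 2 of the tested pathway genes are not reported here. Named genes were the 10 members, other pathway genes past both thresholds, the gene of smallest adjusted p in each list, overlapping genes and the 3 genes most like the member with the largest change. The members and lists were chosen with earlier results of these data known. Alternatives were 4 other scalings, 2 other filters, DESeq2, a prior count of 2, a block for replicate number and leaving out each library.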

Additional observations from a re-analysis of the deposited data

How the results depend on the processing

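Over 9 alternative settings and 6 left-out libraries, 124 of 150 values of the members kept their direction and their side of the threshold, and MCL1 and BCL2L11 did so in every one. The count of 0 higher members became 3 with upper quartile scaling, 3 with library totals, 3 with ribosomal protein genes and 1 with at least 10 counts in every library (BMF), and 0 to 1 with a library left out. The count of 7 lower members became 5 with upper quartile scaling, 4 with library totals and 2 with ribosomal protein genes, and 6 to 7 with a library left out. The 7 higher and 21 lower genes of the other lists became 10 and 18 with upper quartile scaling and 13 and 12 with library totals. They became 17 and 4 with ribosomal protein genes. With DESeq2 3 were higher and 21 lower, beside 21.7% higher and 21.7% lower of all genes it tested. With a library left out the counts were 5 to 6 higher and 20 to 21 lower, beside 30% to 32% higher and 26.6% to 29.1% lower of all tested genes. With at least 10 counts in every library, 32.3% of all tested genes were higher and 29.9% lower. With the scalings the median of all tested genes shifted as well, and relative to it each member kept nearly the same value. For the genes of the other lists this was not computed, and for DESeq2 the cause was not tested. BCL2L1 reversed to 0.089 and BAK1 to 0.11 with ribosomal protein genes. Members with few counts, BCL2, BBC3 and BMF, had standard errors of 0.096 to 0.11, and log2 fold changes of 0.19 for BCL2 and 0.22 for BMF did not pass at this precision.

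With the replicate number as a block 1 member was higher, BMF, at 0.22 (adjusted p = 0.024 in edgeR). Of all tested genes this fit called 35% higher and 33.3% lower. Same-numbered libraries deviated from their condition means with correlations of 0.32, 0.087 and 0.24, and each library correlated best with its own number, a hint from the data, but with 1 pair under 0.1 the numbers were not taken to pair the libraries.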

Other observations

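Over the 6 libraries the genes whose pattern was closest to that of BCL2L11 were IFRD1, GTF2I and SNORD31, among 12195 tested genes averaging 50 or more normalized counts. The measure was the Euclidean distance between log2 normalized counts centred on each gene's mean, which was 0.049, 0.074 and 0.076. Their log2 fold changes were -0.57, -0.55 and -0.54. The 6 points share the same libraries and 2 conditions, so many genes that fell by a like amount lie close. GTF2I has close pseudogene copies and SNORD31 is a small nucleolar RNA, and the counts of both are uncertain.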
